A study of Mus musculus with 4 samples.

Results

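Klf2, Klf3, Klf4, Klf6, Klf7, Klf9, Klf10, Klf11, Klf13 and Klf16 are 10 of the mouse genes Klf1 to Klf17, which code for Krüppel-like factors. They were described here by the m6A peaks whose summit lay in one of their GENCODE M21 exons. These 10 genes stand among 21938 protein-coding genes, and their summits numbered 23 of the 15635 peaks of replicate 1 and 21 of the 14872 peaks of replicate 2. All 10 genes had at least 1 summit in an exon in each replicate, where 34.5% of protein-coding genes had one in replicate 1, 33.5% in replicate 2 and 30.9% in both. The genes were listed with results of these data known, so nothing is read from that difference.

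N6-methyladenosine (m6A) was mapped by meRIP-seq, in which RNA fragments are pulled down with an antibody to the modified base and sequenced beside unselected fragments. Per the labels the cells were MACS-enriched Kit+ foetal liver cells on a C57BL/6 background. Per the methods they were c-Kit-enriched cells of Ythdf2 CTL mice, that is Ythdf2 fl/fl mice without Cre, whose floxed alleles carry GFP behind the Ythdf2 start codon and so make a GFP-YTHDF2 fusion protein in every sample. The labels name 2 immunoprecipitation (IP) samples of total RNA and 2 input samples of polyA RNA, and the 2 IP samples are the replicates described here (biological replicates per the methods), with no treatment and no second genotype. The age of the embryos and the number pooled are not given in the sources used here, and the input libraries were not analysed here. With 1 group there is no comparison between conditions, and the p-value of a peak measures reads over background within 1 library.

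Krüppel-like factors are transcription factors that bind GC-rich and CACCC elements through zinc fingers of the C2H2 type at their C-terminal end. The family is commonly split by what the rest of the protein does. Klf2, Klf4, Klf6 and Klf7 belong to a group that mostly activates transcription through acidic domains, Klf3 to a group that recruits the corepressor CtBP, and Klf9, Klf10, Klf11, Klf13 and Klf16 to a group that recruits the corepressor Sin3. m6A is written on the adenosine of the DRACH motif, in which D stands for any base but C, R for a purine and H for any base but G. It is frequent near stop codons and in long exons, and the reader protein YTHDF2 is known for directing methylated mRNAs to decay. Several Klf mRNAs are short-lived early response transcripts.

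GGAC motifs near the summits of 6 peaks found in both replicates are shown as examples. Each lay within 20 nt of a summit in at least 1 replicate. Motifs at other shared sites met this too, among them both Klf11 sites and the 3′ UTR sites of Klf6 and Klf9. The GGAC described is in capitals, and a further GGAC in the Klf2 and Klf16 lines stands in lower case. Each line is the sense strand of GRCm38, and 28 nt are given with the A of the GGAC in capitals at the 15th position.
Klf2, 3′ UTR in exon 3 (chr8:72320995-72321022, plus strand): ctgctatttattGGACcttaggacagag
Klf4, coding sequence of the middle zinc finger in exon 5 (chr4:55528260-55528287, minus strand): ccactgtgactgGGACggctgtgggtgg
Klf6, coding sequence in exon 2 (chr13:5864844-5864871, plus strand): aggaagacctgtGGACcaaattcattct
Klf9, coding sequence in exon 1 (chr19:23141895-23141922, plus strand): cggtgacccgggGGACacctggaaggat
Klf13, 3′ UTR in exon 2 (chr7:63890472-63890499, minus strand): ttggagagacaaGGACtgctgctctggg
Klf16, 3′ UTR in exon 2 (chr10:80568777-80568804, minus strand): aaagcagcaaggGGACtgagaatggact
The motif of Klf2 lay 3 nt after the replicate 2 summit and 40 nt after the replicate 1 summit. That of Klf9 lay 4 nt after the replicate 2 summit and 9 nt before the replicate 1 summit, and that of Klf16 lay 4 and 11 nt after the summits. The motifs of Klf4, Klf6 and Klf13 were near the summit of 1 replicate only. Counted from the summits of replicates 1 and 2, they lay at 9 and -74 nt in Klf4, -79 and 2 nt in Klf6 and 59 and 13 nt in Klf13. Negative values are before the summit. In Klf4 the GGAC is followed by G, so that it is not part of a DRACH motif.

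Among the values given for each peak, the fold enrichment is the IP signal over the local background at the summit as MACS2 computes it. The program adds 1 to both, so at a low background the fold is well below the plain ratio of the reads. The −log10 q is the same program's adjusted significance. The IP reads and control reads at the summit were solved from the fold enrichment and the p-value. The control reads are the local background in units of 1 control read. They can be fractions and are not a count of reads at the summit. The 95% intervals of the fold are exact Poisson intervals on the IP reads and cover counting error only. A peak needs both transcripts and methylation, and fewer cells that express a gene cannot be told apart from less RNA or less methylation per cell. The IP reads at the Klf summits numbered between 7 and 165. Of 8 stem and progenitor cell markers 6 had a summit in both replicates, while Kit and Myb had none. A summit in both was also found for 3 of 5 erythroid, 1 of 5 hepatocyte and 2 of 4 macrophage markers. Of all protein-coding genes 30.9% had a summit in both. What part other cells had in the Klf peaks was not tested.

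The 44 Klf peaks fell on 26 sites. Of these sites 18 had overlapping peaks in both replicates, and every one of the 10 genes had at least 1 such shared site. Of the 44 peaks 36 overlapped a peak of the other replicate, which is 81.8% (95% exact binomial interval 67.3 to 91.8%), beside 86.6% of all summits placed on a protein-coding transcript. Each shared site enters this share once from each list, and peaks of the same gene are not independent. The interval covers counting error only and is too narrow for that reason. The 8 peaks found in 1 replicate only rested on a median of 12.5 IP reads (range 7 to 30), and the 36 shared ones on a median of 57 (range 13 to 165). Peaks in 1 replicate only were therefore mostly thin ones.

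**Figure D1:**
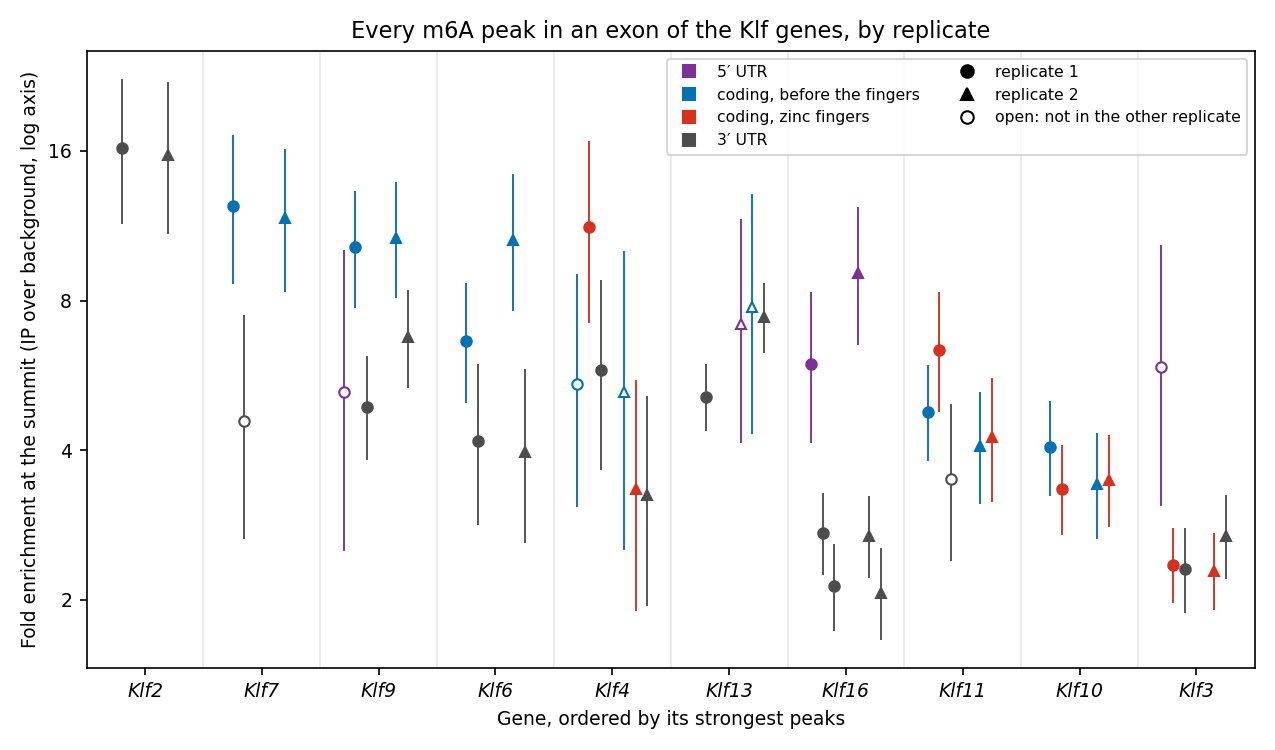
The fold enrichment at the summit of every peak (vertical axis, log scale) is plotted for the 10 genes, in the order of their strongest peaks, with circles for replicate 1, triangles for replicate 2 and bars for the 95% counting interval. Klf2 stands at 16.2 and 15.7 on the left and Klf3 has shared peaks between 2.29 and 2.69 on the right, and most open symbols (peaks not found in the other replicate) have long bars.

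Klf2, an activator known for keeping T cells and endothelial cells quiescent, had a single site, and it was the most enriched of the 10 genes. The peak crossed the stop codon in both replicates, at chr8:72320759-72321219 in replicate 1 and chr8:72320838-72321128 in replicate 2, and its summit lay in the 3′ UTR 52 and 89 nt after the stop codon. Its fold enrichment was 16.2 (11.4 to 22.3) in replicate 1 and 15.7 (10.9 to 22.0) in replicate 2, with −log10 q of 34.9 and 30.4. The IP reads at the summit were 35 and 32, over a background of 1.40 and 1 control reads. The replicates were thus nearly equal, and the high ratio stood on a low background.

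Klf7, an activator known from the developing nervous system, had its strongest site in the coding sequence of exon 2, an internal exon of 628 nt. The fold enrichment was 12.4 (8.63 to 17.2) with 33 IP reads in replicate 1 and 11.8 (8.33 to 16.1) with 36 IP reads in replicate 2. Both summits lay 207 and 208 nt before the zinc fingers and within 1 nt of each other. No GGAC was found within 50 nt of them (the nearest lay 137 and 138 nt away), but 3 and 4 DRACH motifs were. A peak across the stop codon was called in replicate 1 only, with a fold of 4.59 on 14 IP reads, although Klf7 has a 3′ UTR of 6266 nt with 22 GGAC motifs.

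Klf6, an activator and tumour suppressor, also had its strongest site in internal exon 2, of 577 nt. The fold enrichment there was 6.63 (4.99 to 8.66) with 52 IP reads in replicate 1 and 10.6 (7.61 to 14.4) with 39 IP reads in replicate 2. Replicate 2 was higher, on a background of 2.60 control reads where replicate 1 had 8, and the intervals overlapped. The summits of this site lay 81 nt apart, each at a GGAC of its own: the replicate 2 summit 2 nt before the motif printed above, the replicate 1 summit 6 nt after another. The 3′ UTR site of Klf6 gave 4.18 and 3.97 with summits 198 and 196 nt after the stop codon, 18 and 20 nt before a GGAC.

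The 121 coding bases around the Klf6 and Klf9 exonic sites, centred between the summits of the replicates, are shown because these sites carried GGAC at the summit. DRACH motifs are in capitals, and each window holds 5 DRACH motifs, of which 2 contain GGAC.
Klf6, exon 2 (chr13:5864836-5864956, plus strand): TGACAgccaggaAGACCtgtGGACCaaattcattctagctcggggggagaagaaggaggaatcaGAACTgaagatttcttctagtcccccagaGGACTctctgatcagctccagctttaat
Klf9, exon 1 (chr19:23141851-23141971, plus strand): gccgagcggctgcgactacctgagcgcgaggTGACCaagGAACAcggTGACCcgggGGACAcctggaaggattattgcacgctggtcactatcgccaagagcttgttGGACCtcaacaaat

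Klf4, the reprogramming factor that also promotes monocyte differentiation, had few reads under its peaks. It had 3 peaks in each replicate on 4 sites, of which 2 were shared. The site over the zinc finger coding sequence had a fold enrichment of 11.2 (7.22 to 16.8) with 22 IP reads in replicate 1 and 3.34 (1.90 to 5.54) with 13 IP reads in replicate 2, and the −log10 q fell from 19.1 to 2.28. The summits lay 83 nt apart, and the background at the summit was higher in replicate 2 (3 control reads) than in replicate 1 (1.2). Replicate 1 was the higher one, and this was the largest gap between replicates among the 18 shared sites. The 3′ UTR site gave 5.80 (3.65 to 8.81) and 3.25 (1.94 to 5.14), with overlapping intervals. In exon 3, of 985 nt, each replicate had a peak of its own and the peaks did not overlap, with a fold of 5.44 on 13 IP reads in replicate 1 and 5.25 on 7 IP reads in replicate 2. All Klf4 peaks rested on 22 IP reads or fewer.

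Klf3, a repressor of the CtBP group that acts in erythroid cells downstream of Klf1, had the lowest fold of the 10 genes at the strongest peak by q, taken as the mean of both replicates, and its shared sites had a high background. Its site over the zinc fingers had a fold enrichment of 2.35 (1.97 to 2.79) in replicate 1 and 2.29 (1.91 to 2.72) in replicate 2. Of these peaks of 279 and 280 bp, 157 and 158 nt lay on the transcript and the rest before exon 6. The summits had 133 and 124 IP reads over a background of 64.0 and 51 control reads, with −log10 q of 15.1 and 12.1. The replicates were nearly equal, and their summits lay 4 nt apart. The 3′ UTR site, which began past the stop codon, gave 2.31 and 2.69 with 102 and 104 IP reads, at summits 165 nt apart. A peak in the 5′ UTR was called in replicate 1 only, at 5.87-fold (3.09 to 10.3) on 10 IP reads.

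Klf9, a Sin3-binding repressor induced by glucocorticoid and thyroid hormones, was the most enriched of its group. The exon 1 site, 150 to 163 nt after the start codon, had a fold enrichment of 10.2 (7.74 to 13.3) with 54 IP reads in replicate 1 and 10.7 (8.09 to 13.8) with 55 in replicate 2. The broad site from the finger coding sequence into the 3′ UTR, which held 108 nt of the finger stretch in replicate 1 and 65 nt in replicate 2, covered 1113 and 1077 nt of the transcript and gave 4.89 (3.82 to 6.18) and 6.75 (5.35 to 8.42), with 68 and 77 IP reads. Its summits lay 51 and 49 nt after the stop codon, 5 and 3 nt after a GGAC. The coding site had the higher value in both replicates, and the counting intervals of the sites were apart in replicate 1 and overlapped in replicate 2. A peak with its summit in the 5′ UTR, of 5.25-fold on 7 IP reads, was called in replicate 1 only. Of its 237 bp 89 lay on the transcript and the rest before the annotated 5′ end.

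Klf10 and Klf11, Sin3-binding factors first known as TGF-β-inducible early genes, shared a layout of peaks, with 1 site in the long exon 3 (913 and 934 nt) before the fingers and 1 site over the finger coding sequence. In Klf10 the exon 3 site gave 4.06 (3.23 to 5.03) and 3.42 (2.65 to 4.34), with 81 and 65 IP reads. The finger site of Klf10, which ran on over the stop codon, gave 3.34 (2.70 to 4.10) and 3.49 (2.80 to 4.30), with 90 and 87 IP reads. The 4 values of Klf10 did not differ beyond their counting intervals. In Klf11 the exon 3 site gave 4.78 (3.80 to 5.95) and 4.08 (3.12 to 5.24), but its summits lay 416 nt apart within peaks of 911 and 881 bp, which hold 6 GGAC motifs in each replicate. The finger site of Klf11 gave 6.37 (4.77 to 8.34) and 4.24 (3.15 to 5.60), with 51 and 48 IP reads. A distal 3′ UTR peak of Klf11, 1112 nt after the stop codon, was called in replicate 1 only, at 3.50-fold on 30 IP reads.

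Klf13, a Sin3-binding factor known for driving Ccl5 in T cells, had the peak with the most IP reads and the smallest q of the 10 genes. It crossed the stop codon and covered 1489 and 1521 nt of the last exon, with 13 GGAC motifs under it in each replicate, and its summits lay 966 and 1012 nt after the stop codon. The fold enrichment was 5.12 (4.37 to 5.95) on 165 IP reads in replicate 1 and 7.41 (6.28 to 8.69) on 150 IP reads in replicate 2, with −log10 q of 57.6 and 68.8. Replicate 2 was higher and the intervals did not overlap, over 36.0 and 18.4 control reads. A start codon peak of 7.76-fold on 12 IP reads and a 5′ UTR peak of 7.16-fold on 14 IP reads were called in replicate 2 only. The 5′ UTR peak had 178 of its 231 bp on the transcript and the rest before the annotated 5′ end.

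Klf16, a Sin3-binding factor known as a regulator of dopamine receptor genes, had 3 shared sites and none in 1 replicate only. The site in the 5′ UTR, 41 and 53 nt before the start codon, gave 5.95 (4.13 to 8.33) and 9.07 (6.52 to 12.3), with 32 and 39 IP reads. Its peaks passed the annotated 5′ end, with 168 of 211 and 206 of 248 bp on the transcript. The site across the stop codon gave 2.73 (2.25 to 3.29) and 2.69 (2.21 to 3.23), with 109 IP reads in each replicate. The distal 3′ UTR site gave 2.13 and 2.07, the lowest of the 44 values. The 5′ UTR site was the higher one in both replicates with intervals that overlapped neither of the others, over 5.20 and 3.20 control reads where the site across the stop codon had 45.0 and 38.

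**Figure D2:**
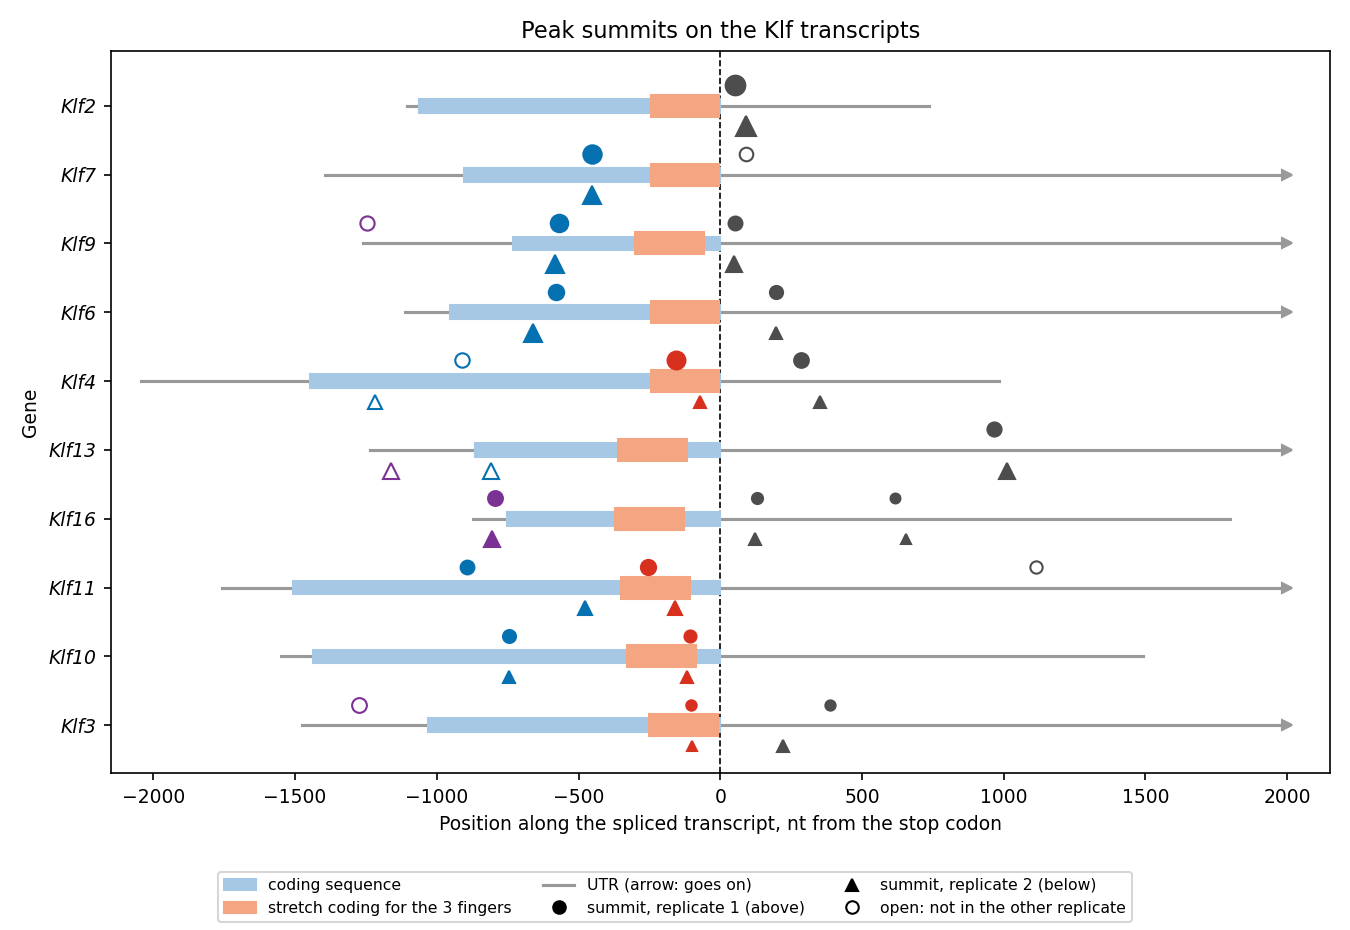
Each transcript is drawn along the horizontal axis in nt from its stop codon (dashed line), with the coding sequence in blue, the stretch that codes for the 3 fingers in orange and UTRs as lines (an arrow marks a 3′ UTR that goes on). Circles above and triangles below are the summits of replicates 1 and 2, larger for a higher fold and open where the other replicate had no overlapping peak, and Klf3, Klf4, Klf10 and Klf11 are the 4 genes with summits over the fingers.

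By place, 18 of the 44 summits lay in 3′ UTRs (9 genes, median fold 4.08), 13 in coding sequence before the fingers (7 genes, median 6.63), 8 in the finger coding sequence (4 genes, median 3.42) and 5 in 5′ UTRs (4 genes, median 5.95). At all 18 shared sites both replicates put the summit in the same one of these places. The place is that of the summit, and parts of some peaks lay outside the transcript. For the peaks with summits over the fingers in replicate 1, 157 of 279 bp lay on the transcript in Klf3 and 195 of 304 in Klf4. In Klf10 these were 640 of 749 and in Klf11 210 of 358. Within 200 nt of the stop codon lay 36.4% of the Klf summits, beside 30.3% of all placed summits. In the last exon lay 59.1%, beside 61.3%, and in an internal exon of at least 400 nt 22.7%, beside 20.6%. Away from both codons, 25% lay in coding sequence, beside 33.9%, 20.5% in 3′ UTRs, beside 17.3%, and 6.82% in 5′ UTRs, beside 3.50%, and within 200 nt of the start codon lay 11.4%, beside 15.0%. The last exon and long internal exon shares were the closest to those of all summits, and the coding share was the furthest from them. The 95% counting interval of the coding share, 13.2 to 40.3%, still held the share of all summits, as did the intervals of the other shares. Each shared site counts once per replicate here, so these intervals are too narrow. In each replicate 8 of the 10 genes had 2 or more peaks, as had 44.0% (replicate 1) and 42.9% (replicate 2) of the protein-coding genes with a peak in both replicates.

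The part of these genes that they share by descent is the finger stretch. A search of the translated coding sequences found 3 fingers in every member, coded by a stretch of 243 nt. An exon junction lay 73 nt into that stretch in all 10 genes, and Klf6 and Klf7 had another junction before the last 46 nt. The fingers ended 3 nt before the stop codon in Klf2, Klf4, Klf6 and Klf7 and 9 nt before it in Klf3. In the Sin3-binding group a tail followed, of 57 nt in Klf9, 87 in Klf10, 108 in Klf11, 117 in Klf13 and 129 in Klf16. A summit close to the stop codon can therefore lie over the fingers in 1 gene and past them in another.

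The finger stretches held 11 GGAC motifs in 7 genes, while those of Klf2, Klf3 and Klf6 held none. At 7 of the 11 the motif spans an arginine and a threonine codon at the end of a finger, and 6 of these 7 were in the Sin3-binding group. In the other 4 it spans a tryptophan and an aspartate codon (Klf4 and Klf11) or a serine and an aspartate codon (Klf4 and Klf13). The end of the middle finger with its linker is shown for all 10 genes because members differ there in whether they hold the motif, in frame, 27 nt each, with GGAC in capitals.
Klf2 (chr8:72320815-72320841, plus strand): cactaccgaaagcacacaggtcacaga
Klf4 (chr4:55528203-55528229, minus strand): cactaccgcaaacacacagggcaccgg
Klf6 (chr13:5866710-5866736, plus strand): cacttccgaaagcataccggtgccaag
Klf7 (chr1:64042340-64042366, minus strand): cactacaggaaacacacaggtgcaaag
Klf3 (chr5:64829048-64829074, plus strand): catttccgaaaacacactgggatcaaa
Klf9 (chr19:23164754-23164780, plus strand): cactaccGGACccacactggggaaaag
Klf10 (chr15:38296067-38296093, minus strand): caccggcGGACacacacaggtgagaag
Klf11 (chr12:24660254-24660280, plus strand): caccgcaGGACtcacacgggagagaag
Klf13 (chr7:63891700-63891726, minus strand): cactatcgcacgcacacgggcgagaag
Klf16 (chr10:80569125-80569151, minus strand): caccaccGGACgcacaccggggagaag
Klf9, Klf10, Klf11 and Klf16 carry the motif here and the others do not. It lay under a peak in both replicates in Klf10 and Klf11, under the replicate 1 peak only in Klf9 and under no peak in Klf16. Of the 11 finger motifs 5 lay under peaks of both replicates, 2 in Klf4, 2 in Klf11 and 1 in Klf10.

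Motif and peak were not matched gene by gene over the finger stretches. Klf3, with no GGAC in its fingers, had a summit over them in both replicates, at positions 148 and 152 of the stretch, and the nearest GGAC lay 309 and 313 nt before the summits. Klf16, with 2 finger motifs, had no finger base under a peak. The 121 nt around the Klf3 and Klf11 finger summits are shown with DRACH motifs in capitals, to set a summit without GGAC beside one with it. The Klf3 window holds 6 DRACH motifs and no GGAC, and the Klf11 window 4 DRACH motifs and 2 GGAC, 1 of which is followed by G and so stands in lower case.
Klf3, exon 6 (chr5:64828993-64829113, plus strand): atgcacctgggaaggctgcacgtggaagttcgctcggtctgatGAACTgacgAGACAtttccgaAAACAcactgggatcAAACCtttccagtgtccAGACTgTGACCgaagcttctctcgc
Klf11, exon 4 (chr12:24660194-24660314, plus strand): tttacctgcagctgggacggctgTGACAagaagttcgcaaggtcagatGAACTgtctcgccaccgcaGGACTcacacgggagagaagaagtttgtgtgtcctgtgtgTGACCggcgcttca
The Klf11 summits lay at positions 98 and 192 of the finger stretch, and the GGAC in capitals lies between them.

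Read in the sense of the mRNA only, GGAC lay within 50 nt of 28 of the 44 summits along the spliced sequence, which is 63.6% beside 56.8% of all placed summits, and 12 had it within 10 nt. DRACH was found within 50 nt of 42, which is 95.5% beside 93.9%. The DRACH share was the closer of them to that of all summits, and the 95% counting interval of the GGAC share, 47.8 to 77.6%, held that of all summits. Both summits of the Klf16 5′ UTR site had no DRACH within 50 nt, and the GGAC nearest to them is followed by G. At 11 of the 18 shared sites both summits had GGAC within 50 nt. The nearest GGAC was not always the same motif for both summits, for example at the Klf4 finger site and the Klf13 site. At 6 neither had, namely both Klf3 sites, both Klf10 sites, the Klf7 coding site and the distal 3′ UTR site of Klf16. A match is a description of the letters and does not show which base carries m6A, since antibody peaks are wider than a motif.

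**Figure D3:**
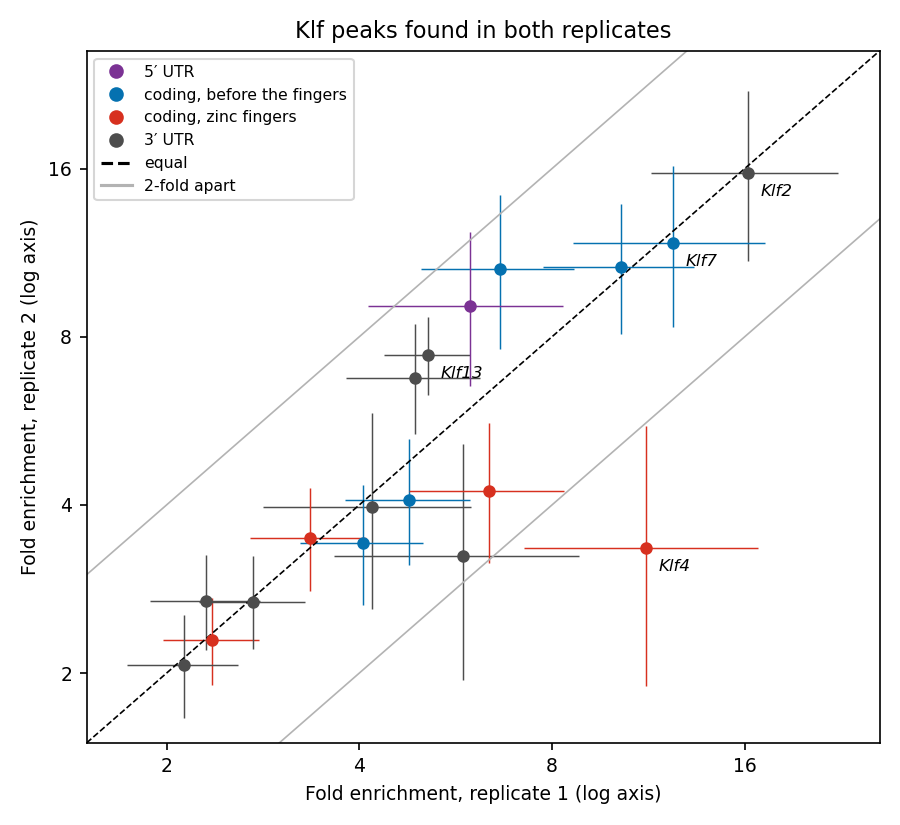
The fold enrichment of the 18 shared sites in replicate 1 (horizontal axis) is set against that in replicate 2 (vertical axis), both on log scales, with 95% counting intervals. The points lie along the line of equal values within the 2-fold lines, except the Klf4 finger site at 11.2 and 3.34.

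Between replicates the fold of the 18 shared sites differed by a median of 0.23 on the log2 scale, beside 0.27 over all 11524 peaks with exactly 1 partner in the other list. Of the 18 sites 17 were within 2-fold, beside 95.2% of all such pairs, and the exception was the Klf4 finger site. The counting intervals overlapped at 16 sites and did not at the Klf4 finger site and the Klf13 3′ UTR site. Replicate 2 was higher at 7 sites. Summits of a shared site lay a median of 25 nt apart, beside 16 nt over all pairs.

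Ordered by the mean log2 fold of its strongest peak by q, the genes ran Klf2 (geometric mean 15.96), Klf7 (12.1), Klf9 (10.5), Klf6 (8.38), Klf4 (7.68), Klf13 (6.16), Klf16 (4.98), Klf11 (4.42), Klf10 (3.76) and Klf3 (2.52). Of the 9 gaps between neighbours 4 were larger than the difference between replicates of either gene, namely those of Klf2 over Klf7, Klf7 over Klf9, Klf11 over Klf10 and Klf10 over Klf3. The 5 gaps in between, from Klf9 down to Klf11, were not larger than the difference between replicates. For Klf2 and Klf7, Klf7 and Klf9, and Klf11 and Klf10 the counting intervals of the strongest peaks overlapped in both replicates. Those of Klf10 and Klf3 overlapped in replicate 2 only. The gap of Klf11 over Klf10 was 0.232 on the log2 scale, where the replicates of Klf11 differed by 0.229. In Klf3, Klf4, Klf10 and Klf16 the strongest peak was at a different site in each replicate. For Klf16 it was the site across the stop codon (2.73) in replicate 1 and the 5′ UTR site (9.07) in replicate 2. Among the genes with the same strongest site in both replicates, only the gaps of Klf2 over Klf7 and Klf7 over Klf9 were larger.

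The fold enrichment moved with the background, which is its denominator, so a fall is built into the measure. A peak on a low background also needs a higher fold to be called. The 25 Klf peaks with under 10 control reads had a median fold of 6.37 (range 3.25 to 16.2), and the 19 with 10 or more a median of 3.42 (range 2.07 to 7.41). Over all placed summits the medians were 6.55 and 3.35. The activator group had a median of 2.60 control reads at its 15 peaks and the Sin3-binding group of 14 at its 24, and their median folds were 5.80 and 4.84. Klf3 had between 36.2 and 64.0 control reads at the 4 peaks of its shared sites. The orders by fold and by background were not the same, since the strongest peaks of Klf13 had 36.0 and 18.4 control reads and higher folds than those of Klf11, with 18.0 and 13. The part of transcript level in the order of the genes was not tested. The Klf2 peak, the coding peaks of Klf7 and Klf9 and the 3′ UTR peak of Klf13 stood above the interquartile range of all summits of like background in both replicates.

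**Figure D4:**
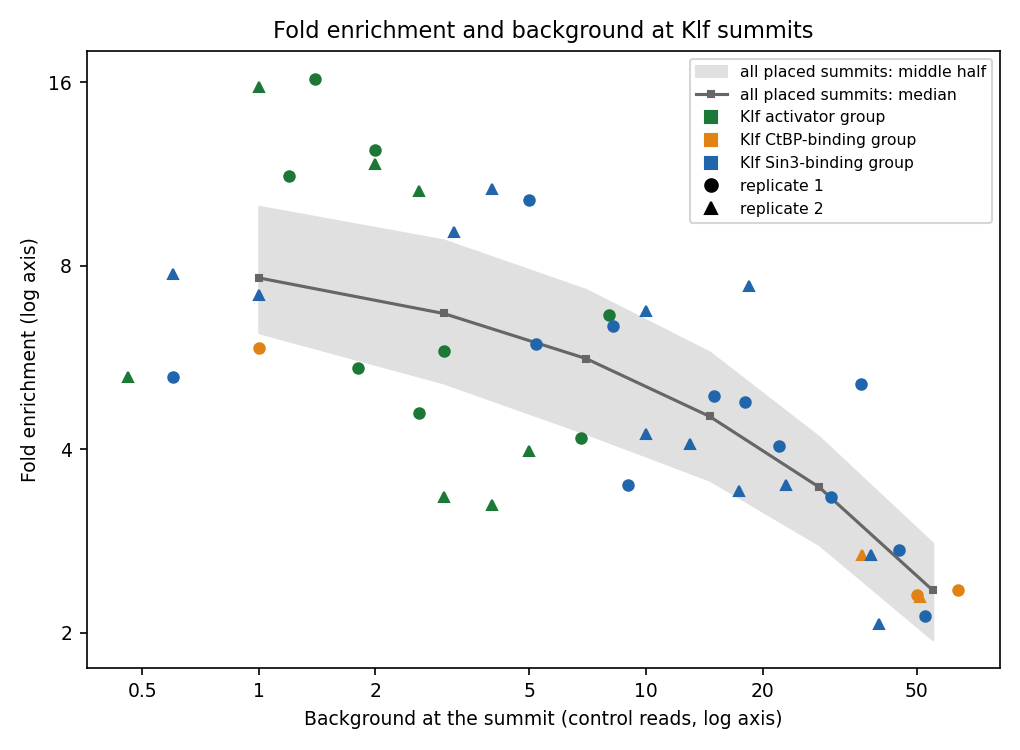
The fold enrichment of the 44 Klf peaks (vertical axis, log scale) is set against the control reads at the summit (horizontal axis, log scale), coloured by group, with the median (line) and the interquartile range (grey) of all 21293 placed summits in bins of control reads. The Klf peaks go down with the line, from 16.2 for Klf2 at 1.40 control reads to 2.35 for Klf3 at 64.0.

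Of the 7 other Klf genes 1 had a summit in both replicates, beside 30.9% of all protein-coding genes. It was Klf1, the erythroid activator of adult globin genes, with folds of 2.56 and 2.28 on 165 and 164 IP reads at its strongest peak. Klf5 had summits in replicate 1 only and Klf8 in replicate 2 only, and Klf12, Klf14, Klf15 and Klf17 had none. Of the 9 Sp genes, which code for factors with closely related fingers, 4 had a summit in both replicates (Sp1, Sp2, Sp3 and Sp4). The folds of their strongest peaks ran from 2.31 and 2.17 in Sp2 to 5.64 and 8.47 in Sp4. The Sp4 summits lay in coding sequence in replicate 1 and within 200 nt of the stop codon in replicate 2. These 2 values therefore need not belong to 1 site. Of 9 cofactor genes 5 had one in both, among them the corepressors Ctbp2 (2.32 and 2.24), Sin3a (2.89 and 2.72) and Sin3b (4.31 and 4.44) and the acetyltransferases Ep300 and Crebbp. Ctbp1 had a peak in replicate 1 only, and Hdac1, Hdac2 and Kat2b had none. Of 3 ubiquitin ligases known to act on Klf proteins Fbxw7 had a summit in both (5.58 and 5.77) and Wwp1 and Smurf1 had none. The same 30.9% stands beside the count of each list. The lists are small and expression was not measured here, so nothing is read from these counts.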

How the data were processed

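The labels' and methods' tools were HISAT2 on GRCm38 (mm10) and MACS2 (nomodel), and 1 peak list per IP replicate was deposited by the authors. The fold enrichment is a ratio that MACS2 computed for the authors, and the deposited −log10 p-value and −log10 q-value refer to the same summit as that fold. The deposited score restates the −log10 q. The lowest −log10 q was 1.31 and 1.30. The calling threshold, control library and read totals are not given in the sources used here. Solving fold and p for whole IP reads matched 100% of peaks in each list (largest misfit 0.000342), with the control scaled by 0.874 in replicate 1 and the IP by 0.952 in replicate 2.

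Summits were placed on GENCODE M21 basic exons and on the transcript with the longest coding sequence, which gave 10829 and 10464 summits on 21851 transcripts. The lists carry no strand, and every Klf summit lay in an exon of 1 gene only. Peaks were shared when they overlapped by at least 1 bp. Sequences were read from GENCODE M21 transcripts. Fingers were found as C, 2 or 4 residues, C, 12 residues, H, 3 residues, H. Scripts (Python 3.11.15, numpy 2.4.6, scipy 1.17.1) were tested on simulated data. All members with all their peaks were named, and list genes with a summit in both replicates. Members, lists and settings were chosen with earlier results of these data known. No test between groups was made.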

Additional observations from a re-analysis of the deposited data

Results flagged for a closer look

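Summits in introns of the 10 Klf genes lay outside the measurement by exon and numbered 4 in both lists together, with none in the 5000 bp past a 3′ end. A signal in introns, which the exon counts do not use, is what set them apart. Of the 4, 2 formed a shared site in intron 1 of Klf3, with a fold of 8.56 in replicate 1 (30 IP reads, 3 control reads) and 14.3 in replicate 2 (35 IP reads, 1.40 control reads), and summits at 64804420 and 64804419 of chromosome 5. That position is in the single exon of C230096K16Rik, a gene model on the same strand as Klf3, so the reads cannot be given to Klf3. Its fold was higher than that of every Klf3 exon peak in the same replicate. The others were in replicate 1 only, in Klf2 (4.96-fold on 6 IP reads) and in Klf7 (5.67-fold on 7 IP reads).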

How the results depend on the processing

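The count of genes with a summit in both replicates was 10 with the comprehensive annotation, with any overlap of a peak with an exon and with summits in several genes left out, 9 at a minimum −log10 q of 5 (Klf4 dropped out) and 8 at a minimum fold of 4 (Klf3 and Klf10 dropped out). A minimum fold of 4 changed the shared peaks from 81.8% to 62.1%, the summits at the stop codon from 36.4% to 27.6%, those with GGAC from 63.6% to 75.9% and the median fold from 5.004 to 6.37. Shared peaks were 72.7% when summits had to lie within 100 bp. Summits at the stop codon were 47.7% within 400 nt and 13.6% within 100 nt. Summits with the motif were 45.5% within 25 nt, 75% within 100 nt and 95.5% with DRACH for GGAC. The median fold was 7.02 over the strongest peak of each gene, and 4.24 to 5.12 when each replicate was left out in turn. Of these shares, the 62.1% shared, the 13.6% at the stop codon and the 45.5% and 95.5% with the motif lay outside the 95% counting intervals of the main values. The other shares listed here, and those under the remaining alternatives, lay inside them. No paired analysis was possible because the 2 IP samples form 1 group. Peaks of 1 replicate only rested on 7 to 30 IP reads, so their absence from the other list is not evidence of a difference at this depth.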

Other observations

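Upstream of Klf16 both replicates had a peak before the annotated 5′ end, with summits 326 and 278 nt away, at 4.97-fold on 17 IP reads and 4.46-fold on 13 IP reads. The peaks overlapped between replicates and lay in no annotated exon, and the lists carry no strand. Klf16 is also the gene with the only 5′ UTR site shared by both replicates among the 10 Klf genes. The share of the spliced transcript under peaks ran from 9.54% (replicate 1) and 6.45% (replicate 2) in Klf7 to 42.1% and 41.2% in Klf10.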
